A study of Mus musculus with 36 samples.

Results

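The glycogen genes described here are the 9 rows of the liver count table named Gys2, Gyg, Ugp2, Gbe1, Pygl, Phka2, Ppp1r3b, Ppp1r3c and Ppp1r3g, out of 38283 genes in the table. All 9 passed the filter on low counts that left 13945 genes for testing. They were chosen by name, and their levels played no part in the rule. The labels, checked against markers, describe liver: the summed level of 5 hepatocyte markers (Alb, Ttr, Apoa1, Tat and Cps1) was 45420 to 87520 CPM (counts-per-million, with library totals scaled by TMM factors), while 4 of 5 skeletal muscle markers (Acta1, Ckm, Myh4 and Tnnt3) and 2 of 5 adipocyte markers (Plin1 and Lep) each averaged under 0.1 CPM. All 5 adipocyte markers together, Adipoq, Cidec and Fabp4 included, summed to 5.066 to 139.5 CPM.

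Livers came from 36 male mice of the C57Bl/6J background, 16 weeks old and kept on chow. Each of 3 feeding states held 6 wild-type (WT/WT) and 6 WT/Y657* animals. Fed mice (ALC in the labels) ate ad libitum, fasted mice (ONF) went 16 h without food, and refed mice (RF6) had chow for 6 h after such a fast. Single mice are named below by their labels, as in ONF_WT_919, in which MT stands for WT/Y657*. WT/Y657* mice are heterozygous for PIK3R1(Y657X), a nonsense allele of the gene for the p85α regulatory subunit of PI3K that was introduced, with a neomycin cassette flanked by LoxP sites, by gene targeting in embryonic stem cells. Heterozygosity and sex are given by the study's methods. Controls were wild-type littermates. Every tissue of the WT/Y657* mice carries the allele, so a liver value is that of a whole-body model.

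Glycogen is the glucose polymer that hepatocytes lay down after a meal and degrade between meals to hold blood glucose steady. UDP-glucose pyrophosphorylase makes the activated glucose, glycogenin primes the chain, glycogen synthase lengthens it and branching enzyme adds side chains, whereas glycogen phosphorylase, activated by phosphorylase kinase, releases glucose as its phosphate. Regulatory subunits carry protein phosphatase 1 to the glycogen particle, where it switches synthase on and phosphorylase off, and insulin acting through PI3K favours storage while glucagon acting through cyclic AMP favours release. Much of this control is by phosphorylation, which transcript counts do not measure.

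The sequence upstream of the RefSeq transcription start is shown for 3 members, namely Ppp1r3c and Pygl, whose levels did not overlap between fasted genotypes, and Gbe1, which was called both on fasting and on refeeding in each genotype. Coordinates are of the mouse build GRCm38.p6 and each sequence runs 5′ to 3′ on the strand of its gene. The Ppp1r3c stretch ends where its first annotated exon begins. The Pygl stretch lies inside the Pygl gene as GENCODE bounds it, and 93 of its bases are in an exon of the antisense gene F730035M05Rik. Capitals mark a match to a searched motif.
Ppp1r3c, chr19:36736654-36736854, minus strand: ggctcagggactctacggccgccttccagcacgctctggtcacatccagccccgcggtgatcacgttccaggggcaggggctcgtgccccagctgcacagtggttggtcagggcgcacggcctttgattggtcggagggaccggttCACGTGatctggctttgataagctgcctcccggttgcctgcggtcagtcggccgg
Pygl, chr12:70227684-70227933, minus strand: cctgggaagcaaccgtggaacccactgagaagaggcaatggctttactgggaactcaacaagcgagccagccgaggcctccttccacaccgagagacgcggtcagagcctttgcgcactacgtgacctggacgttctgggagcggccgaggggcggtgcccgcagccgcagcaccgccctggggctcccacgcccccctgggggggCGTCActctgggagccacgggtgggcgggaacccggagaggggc
Gbe1, chr16:70313699-70313948, plus strand: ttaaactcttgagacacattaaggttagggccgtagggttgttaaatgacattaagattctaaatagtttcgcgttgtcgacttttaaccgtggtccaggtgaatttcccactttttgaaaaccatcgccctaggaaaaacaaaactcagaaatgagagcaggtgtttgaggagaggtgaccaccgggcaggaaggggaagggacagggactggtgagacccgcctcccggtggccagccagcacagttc
The capitals in Ppp1r3c are the E-box CACGTG, from -104 to -99 of its start, and 6.02% of 32851 RefSeq promoters held this motif on either strand within 250 bases upstream. Those in Pygl are TGACG, the short form of the cAMP response element, read on the opposite strand from -44 to -40, a motif that 17.77% of promoters held and that also lies inside the full element. None of the 5 motifs searched on both strands matched the Gbe1 stretch. The other 3 were the full cAMP response element TGACGTCA, held by 1.55% of promoters, the forkhead element TGTTTAC, held by 3.17%, and the glucocorticoid receptor core AGAACA, held by 16.08%, of which the last also matched upstream of Phka2. A match describes the letters and is not evidence of binding. TGACG also matched upstream of the RefSeq start of Ppp1r3g, from -40 to -36, in bases that GENCODE places in an exon of the same gene. Promoters were matched for 7 of the 9 members, all but Gys2 and Ppp1r3b.

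The deposited loci lie on GRCm38, and the bounds given here are those of GENCODE on that build. Gys2 is on chromosome 6 (142422613 to 142473109), Gyg on 3 (20122084 to 20155317), Ugp2 on 11 (21321138 to 21371201), Gbe1 on 16 (70313949 to 70569716) and Pygl on 12 (70190811 to 70231488). Phka2 is on X (160502166 to 160598878), Ppp1r3b on 8 (35375739 to 35388139), Ppp1r3c on 19 (36731731 to 36736653) and Ppp1r3g on 13 (35958839 to 35970388). The deposited loci of Ugp2, Pygl, Ppp1r3b and Ppp1r3c have other bounds, with Ugp2 ending at 21374161 and Pygl at 70234165. Antisense genes overlap the starts of Pygl and Ugp2, and since the sources used here do not say whether counting used strand, reads of each pair cannot be told apart.

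Per kilobase of exon, and taking group means of CPM, Ugp2 had the highest level of the 9 in every group (84.07 to 133.9 CPM per kb). Ugp2 encodes UDP-glucose pyrophosphorylase. Pygl, the liver glycogen phosphorylase, came next in fed mice (99.45 in WT/WT and 116.3 in WT/Y657*), ahead of Gys2, the liver glycogen synthase (59.43 and 59.5). In fasted mice that order was turned, with Gys2 at 96.91 and Pygl at 51.46 in WT/WT and at 64.21 and 36.79 in WT/Y657* mice. Gys2 also stood above Pygl in refed mice (72.6 and 50.67 in WT/WT, 63.49 and 47.61 in WT/Y657*). The bottom of the order was the same in all 6 groups: Phka2 (4.555 to 5.438), Gyg (1.809 to 2.134) and Ppp1r3g (0.02648 to 0.9076). The turn in the order of Gys2 and Pygl rests on exon length, 2.657 and 6.895 kb. Before scaling by length, mean Pygl was above mean Gys2 in every group, at 354.8 and 257.5 CPM in fasted WT/WT mice. The first place of Ugp2 (3.069 kb) rests on length too. In fed mice Pygl had 685.7 CPM and Ugp2 360.7 in WT/WT, and 801.8 and 410.8 in WT/Y657*. In fasted WT/Y657* mice mean Ugp2 (258 CPM) was above mean Pygl (253.7). These orders between genes were not tested.

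Total counts per library ranged from 8839488 to 19542775 (median 13596665.5). Gyg was read 38 to 105 times in a library, Phka2 260 to 588 times, Ppp1r3c 450 to 1743 times and Ppp1r3g 0 to 210 times, whereas the other 5 members were read at least 641 times each. Pik3r1, the targeted gene, was not called between genotypes in any state (edgeR adjusted p = 0.886 fed, 0.807 fasted, 0.423 refed), which does not test the label since both alleles are counted. Mouse numbers limit some comparisons. The fasted and the refed mice belong to a low and a high series of numbers, each with 3 mice per genotype and state, and the fed mice belong to neither. A contrast with fed mice is therefore also a contrast of number series, and the 2 cannot be told apart.

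**Figure D1:**
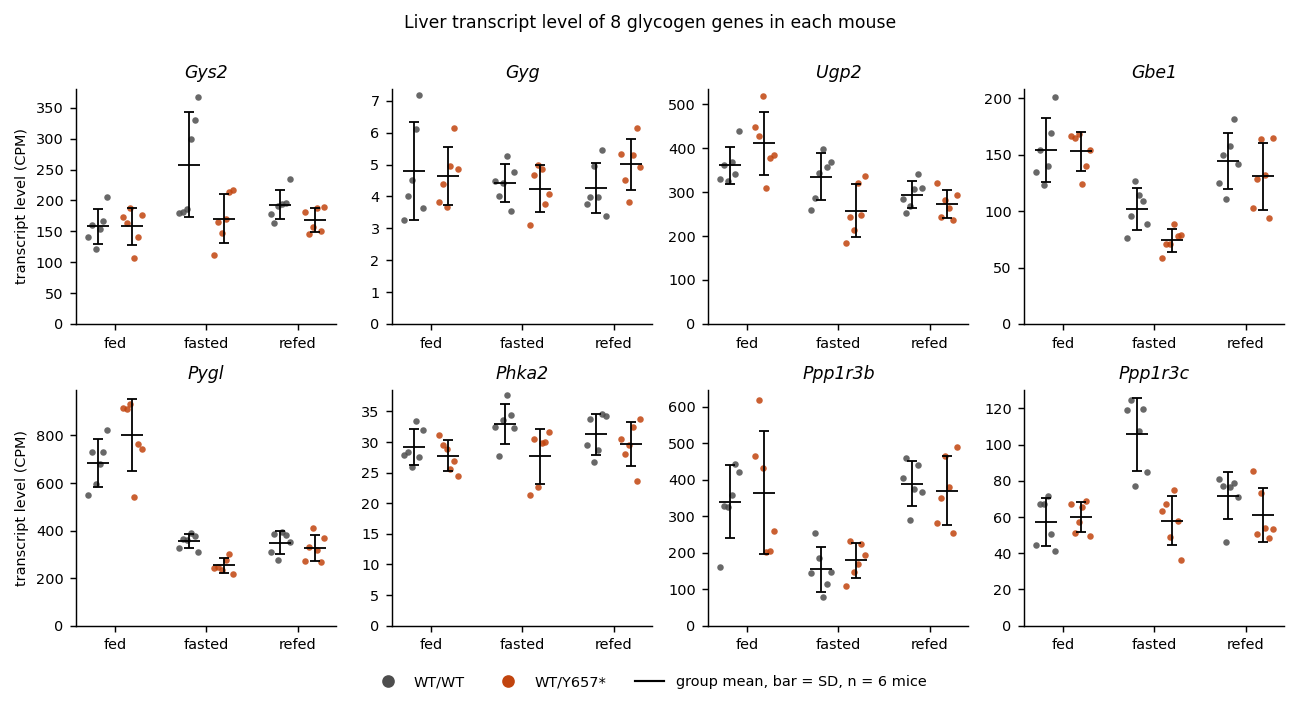
Transcript level (CPM, y axes from 0) of the 8 members other than Ppp1r3g in each mouse, with WT/WT mice in grey and WT/Y657* mice in orange by feeding state, and the group mean with its SD (n = 6). In fasted mice the WT/Y657* points for Pygl (219.1 to 302.3 CPM) and Ppp1r3c (36.4 to 74.86) lie below every WT/WT point.

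The genotypes differed in fasted liver. After the 16 h fast, 5 of the 9 members were lower in WT/Y657* than in WT/WT mice and 0 were higher, when 13.1% of all genes tested were called, 6.63% lower and 6.43% higher. A gene counts as called where its edgeR quasi-likelihood test has a Benjamini-Hochberg adjusted p under 0.05. The 5 were the synthase Gys2, the branching enzyme Gbe1, Ugp2, the phosphorylase Pygl and the phosphatase-targeting subunit Ppp1r3c, so both the synthetic and the degradative side of the pathway were among them. Over the 9 members the median log2 fold change was -0.38, against 0.0021 over all genes tested. Pygl and Ppp1r3c did not overlap between the genotypes, as was true of 5.04% of genes tested. In whole liver, fewer hepatocytes and less transcript per hepatocyte cannot be told apart.

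Ppp1r3c encodes the subunit also known as PTG, which tethers protein phosphatase 1 to glycogen together with its substrates. Its level in fasted WT/WT mice was lowest at 77.24, with a median of 113.4 and a highest value of 124.8 CPM. In fasted WT/Y657* mice the lowest, median and highest values were 36.4, 60.48 and 74.86 CPM. All 6 mutant mice thus lay below all 6 wild-type mice. This was a log2 fold change of -0.87 (SE 0.17, edgeR adjusted p = 0.00105), or 1.82-fold lower. It was -0.82 in the lower and -0.93 in the higher number series (difference of mean log2 CPM, 3 mice against 3, no test). With each of the 12 fasted mice left out in turn it was between -0.95 and -0.76, with an edgeR adjusted p of at most 0.00392.

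Pygl, which frees glucose 1-phosphate from the ends of the chains, was at 311.2, 362.1 and 390 CPM (lowest, median and highest) in fasted WT/WT mice. In fasted WT/Y657* mice the corresponding values were 219.1, 244.4 and 302.3 CPM. Again no mutant mouse reached the lowest wild-type mouse. Pygl thus had a log2 fold change of -0.48 (SE 0.12, edgeR adjusted p = 0.00548), or 1.40-fold lower, with -0.54 and -0.44 in the lower and higher number series. It kept an edgeR adjusted p of at most 0.0176 whichever of the 12 mice was left out. Phka2, the liver α subunit of phosphorylase kinase, was at 27.64 to 37.63 CPM (median 33.05) in fasted WT/WT and 21.31 to 31.62 CPM (median 29.91) in fasted WT/Y657* mice. That difference of -0.26 on the log2 scale (SE 0.097) did not pass the test (edgeR adjusted p = 0.0741), although it did with mouse number series as a covariate (-0.26, 0.0466) and without ONF_WT_824 (0.0421) or ONF_MT_923 (0.049).

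The enzymes of synthesis overlapped between the genotypes. Gys2, which adds glucose to the growing chain, was at 180.1, 242.4 and 368 CPM (lowest, median and highest) in fasted WT/WT and 111.3, 167.5 and 217.5 CPM in fasted WT/Y657* mice, and 4 of the 6 mutant mice lay below every wild-type mouse. For Gys2 the log2 fold change was -0.59 (SE 0.17, edgeR adjusted p = 0.0182). The wild-type mice formed 2 clusters that followed mouse number: 180.1 to 185.8 CPM in the lower series and 299 to 368 CPM in the higher series. Within the series the genotype difference was -0.39 and -0.74. Without ONF_WT_919, ONF_WT_920 or ONF_MT_806 the edgeR adjusted p was 0.0587, 0.0665 or 0.0645, and in a fit of only the groups compared it was 0.122.

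Gbe1, the branching enzyme, was at 76.27, 102.7 and 127.1 CPM in fasted WT/WT and 58.72, 74.77 and 89.01 CPM in fasted WT/Y657* mice. Ugp2 was at 258.1, 351 and 397.7 CPM in fasted WT/WT and 184.3, 245.8 and 337.7 CPM in fasted WT/Y657* mice. Both genes thus shared part of their range between the genotypes, with 3 mutant mice below every wild-type mouse for Gbe1 and 4 for Ugp2. Gbe1 had a log2 fold change of -0.45 (SE 0.14, edgeR adjusted p = 0.0275), with -0.55 and -0.34 in the lower and higher number series. That for Ugp2 was -0.38 (SE 0.13, edgeR adjusted p = 0.0396), with -0.47 and -0.32 in the series. These are the weakest of the calls. The edgeR adjusted p of Gbe1 was 0.0814, 0.0625, 0.0581, 0.0884 or 0.0548 without ONF_WT_825, ONF_WT_918, ONF_WT_919, ONF_MT_806 or ONF_MT_827, and 0.0526 with no filter on low counts. That of Ugp2 was 0.066, 0.105, 0.0792, 0.0788, 0.134, 0.0677, 0.1 or 0.0637 without ONF_WT_825, ONF_WT_918, ONF_WT_919, ONF_WT_920, ONF_MT_806, ONF_MT_826, ONF_MT_827 or ONF_MT_922. It was 0.0655 with no filter, 0.0724 with scaling by library size only and 0.113 in a fit of only the groups compared.

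The other 3 members were not called between fasted genotypes. Gyg, which encodes glycogenin, was at 3.544 to 5.277 CPM in WT/WT and 3.098 to 4.982 CPM in WT/Y657* mice (log2 fold change -0.058, SE 0.18, edgeR adjusted p = 0.874). Ppp1r3b encodes GL, the main glycogen-targeting subunit of liver. It was at 79.06, 145.7 and 254.9 CPM in WT/WT and 107.8, 182.6 and 231.5 CPM in WT/Y657* mice, and the ranges were nested. Its log2 fold change of 0.22 (SE 0.27, edgeR adjusted p = 0.668) pooled opposite signs, -0.30 in the lower and 0.83 in the higher number series. Ppp1r3g is described further on.

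Markers of other cell types also differed between the fasted genotypes. The summed level of 5 stellate cell markers (Lrat, Des, Reln, Dcn and Rgs5) was 340.4 to 408.7 CPM in WT/WT and 401.8 to 584.6 CPM in WT/Y657* mice, with 2 of the 5 called higher. Of 5 endothelial markers 1 was called higher, with sums of 291.7 to 339.4 and 277.6 to 341.8 CPM. Of 5 hepatocyte markers 0 were called, with sums of 57880 to 87520 and 67260 to 84980 CPM. Of the 2 adipocyte markers tested 0 were called, with sums over all 5 of 23.96 to 37.66 and 15.74 to 139.5 CPM, the highest in ONF_MT_827. No hepatocyte, stellate or endothelial marker was at 0, and the part of these cell types in the lower glycogen transcripts was not tested. The stellate difference was not confined to fasted mice. In fed mice the stellate sums were 283.5 to 392.2 CPM in WT/WT and 399.8 to 532.6 CPM in WT/Y657* mice, with 1 of 5 markers called higher. Fed Kupffer cell sums were 162.1 to 223.4 and 153.8 to 525 CPM, with 0 of 4 called. In refed mice 0 of 5 stellate markers were called.

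**Figure D2:**
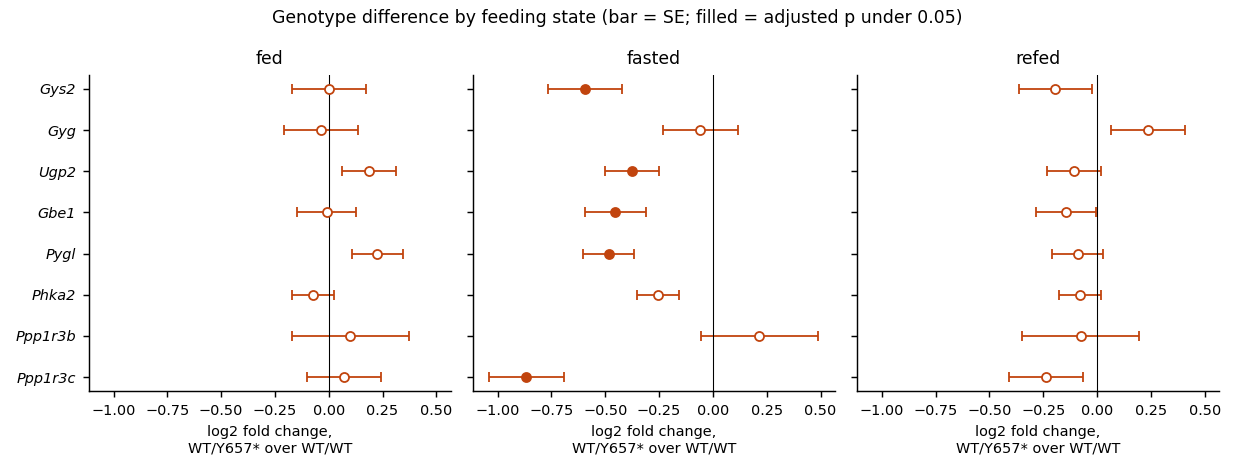
Log2 fold change of WT/Y657* over WT/WT mice (x axis, bar = SE) for 8 members in fed, fasted and refed liver, 6 mice per genotype and state, with filled points where the edgeR adjusted p was under 0.05. The 5 filled points are all in the fasted panel and all below 0, from -0.87 for Ppp1r3c to -0.38 for Ugp2.

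In fed liver, 0 of the 9 members were called between genotypes (edgeR), against 2.37% of all genes tested, and 1 had an unadjusted p under 0.05. That 1 was Ppp1r3g, named for this reason, with a log2 fold change of -2.48 (unadjusted p = 0.0151 and adjusted p = 0.161 by edgeR) that was 2.03 without ALC_WT_860. In refed liver, 0 of 9 were called (edgeR), against 0.0287% of all genes, and 0 had an unadjusted p under 0.05. DESeq2, limma-voom and the edgeR likelihood ratio test also called 0 of the 9 in both states. Groups without overlap were found for 0 members in either state, and for 1.07% of genes tested in fed and 0.624% in refed mice. Among the 8 better-read members the fed log2 fold changes lay between -0.072 (Phka2) and 0.23 (Pygl), and the refed ones between -0.24 (Ppp1r3c) and 0.24 (Gyg). Pygl thus took the opposite sign in fed mice (0.23, SE 0.12, edgeR adjusted p = 0.314) to that in fasted mice, and Ugp2 did likewise (0.19, SE 0.13, edgeR adjusted p = 0.449), but neither fed value passed the test. In fed mice genotype nearly follows mouse number, and only 1 run of neighbouring numbers, with 2 WT/WT and 3 WT/Y657* mice, holds both genotypes. Within those 5 mice Pygl differed by 0.25, Ugp2 by 0.26 and Gys2 by -0.080 in mean log2 CPM. The other differences there were 0.34 for Ppp1r3c, 0.21 for Ppp1r3b, 0.0098 for Phka2, -0.15 for Gbe1, -0.36 for Gyg and -3.35 for Ppp1r3g.

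**Figure D3:**
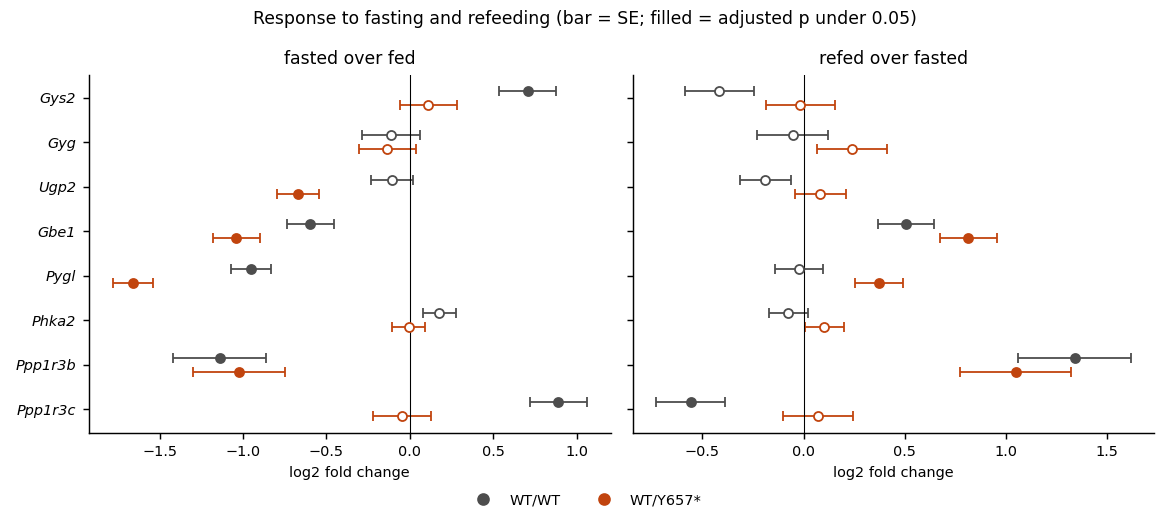
Log2 fold change (x axis, bar = SE) of fasted over fed and of refed over fasted liver for 8 members, WT/WT in grey and WT/Y657* in orange, 6 mice per group, with filled points where the edgeR adjusted p was under 0.05. On fasting, Pygl fell by 0.95 in WT/WT and by 1.66 in WT/Y657* mice, and Ppp1r3c rose by 0.89 in WT/WT mice with a value of -0.048 in WT/Y657* mice.

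Fasting moved 5 of the 9 members in WT/WT liver. Gys2 and Ppp1r3c rose, as did 14.5% of all genes tested, and Pygl, Gbe1 and Ppp1r3b fell, as did 17.5%. In WT/Y657* liver 4 of the 9 were called, where 32.9% of all genes were, and all 4 fell, as did 17.7% of all genes: Pygl, Gbe1, Ppp1r3b and Ugp2. The responses of the 2 genotypes share no mice, but each shares its fasted mice with the comparison of fasted genotypes above and with refeeding below. With DESeq2, limma-voom or the edgeR likelihood ratio test the same 5 and 4 members were called, limma-voom adding Ppp1r3g in each genotype.

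Pygl had the steepest fall of the 8 in WT/Y657* mice. Fed WT/WT mice had 549.7 to 824.9 CPM (mean 685.7, SD 100.3) and fed WT/Y657* mice 542.8 to 933.6 CPM (median 837.9). Every fasted mouse of either genotype was below every fed one. In the run of neighbouring numbers holding both genotypes, the 3 fed WT/Y657* mice had 912.7 to 933.6 CPM. The other 3 fed WT/Y657* mice had 542.8 to 763.1 CPM. Fed WT/WT mice overlapped, at 730.4 to 824.9 CPM in that run (2 mice) and 549.7 to 732.5 CPM outside it (4 mice). The part of mouse number in the fasting responses of Pygl was not tested. The log2 fold change on fasting was -0.95 (SE 0.12, edgeR adjusted p = 6.8e-08) in WT/WT and -1.66 (SE 0.12, edgeR adjusted p = 3.6e-13) in WT/Y657* mice, that is 1.93-fold and 3.16-fold lower. These responses differed: the interaction was -0.71 (SE 0.17, edgeR adjusted p = 0.0114), and with any of the 24 fed and fasted mice left out its adjusted p was at most 0.0249. Groups without overlap on fasting were found for 17.6% of genes tested in WT/WT and 11.5% in WT/Y657* mice.

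Ppp1r3c was the other member whose response differed. Its fed levels were 41.34, 58.93 and 71.69 CPM in WT/WT and 49.42, 61.48 and 68.91 CPM in WT/Y657* mice. In WT/WT mice all 6 fasted values were above all 6 fed values, with a log2 fold change of 0.89 (SE 0.17, edgeR adjusted p = 0.00014) or 1.85-fold. In WT/Y657* mice fed and fasted values overlapped, with a log2 fold change of -0.048 (SE 0.17, edgeR adjusted p = 0.865). The interaction was -0.94 (SE 0.24, edgeR adjusted p = 0.0225), and at most 0.0453 with any of the 24 mice left out. The rise on fasting was thus seen in WT/WT liver, and the difference between the genotypes in that rise passed the test. In fed mice genotype nearly follows mouse number, and the part of mouse number in this difference was not tested. Among all genes tested 4.35% had a response to fasting that differed by genotype, and 1.76% had a lower one in WT/Y657* mice, as Pygl and Ppp1r3c, 2 of the 9 members, did.

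For Gys2, fed levels were 121.7, 156.9 and 205.4 CPM in WT/WT and 106.3, 168.7 and 187.3 CPM in WT/Y657* mice. Fasting raised it by 0.71 on the log2 scale in WT/WT mice (SE 0.17, edgeR adjusted p = 0.00168), with 3 fasted mice, all of the higher number series, above every fed mouse. In WT/Y657* mice the change was 0.11 (SE 0.17, edgeR adjusted p = 0.664). The interaction of -0.60 (SE 0.24) did not pass the test (edgeR adjusted p = 0.159), so a difference between the genotypes in the Gys2 response is not shown.

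Gbe1 fell in both genotypes. Its fed levels were 123.5, 147.2 and 201.6 CPM in WT/WT and 124.1, 159.4 and 168.1 CPM in WT/Y657* mice, and in WT/Y657* mice no fasted value reached a fed one. The log2 fold changes were -0.60 (SE 0.14, edgeR adjusted p = 0.00109) and -1.04 (SE 0.14, edgeR adjusted p = 4.5e-07), with an interaction of -0.44 (SE 0.20, edgeR adjusted p = 0.202). Ugp2, at 324.3, 351.3 and 439.5 CPM in fed WT/WT and 308.3, 406 and 518.8 CPM in fed WT/Y657* mice, fell in WT/Y657* mice by 0.67 on the log2 scale (SE 0.13, edgeR adjusted p = 6.4e-05). In WT/WT mice its value was -0.11 (SE 0.13, edgeR adjusted p = 0.565). The interaction for Ugp2 was -0.57 (SE 0.18) and did not pass the test (edgeR adjusted p = 0.0583). It did so without ONF_WT_807 (0.0334), ALC_WT_860 (0.036), ALC_MT_866 (0.0318), ONF_MT_921 (0.0285) or ONF_MT_923 (0.0274), with scaling by library size only (0.0367), with at least 10 counts in every library (0.0469) and with DESeq2 (0.0392).

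Ppp1r3b fell in both genotypes. In fed WT/WT mice it was at 162.2, 343.3 and 443.6 CPM and in fed WT/Y657* mice at 203.3, 346.6 and 618.5 CPM, the widest fed ranges of the 3 targeting subunits on the CPM scale. The log2 fold changes on fasting were -1.14 (SE 0.28, edgeR adjusted p = 0.00179) in WT/WT and -1.02 (SE 0.28, edgeR adjusted p = 0.0044) in WT/Y657* mice. In each genotype 4 of the 6 fasted mice lay below every fed mouse. Fed levels followed mouse number. In the run holding both genotypes, the 3 fed WT/Y657* mice had 433.5 to 618.5 CPM. The other 3 had 203.3 to 259.6 CPM, which overlapped the range of fasted WT/Y657* mice (107.8 to 231.5 CPM). Fed WT/WT mice had 420.5 to 443.6 CPM in that run (2 mice) and 162.2 to 358.1 CPM outside it (4 mice). The part of mouse number in the fall of Ppp1r3b was not tested. The interaction was 0.12 (SE 0.39, edgeR adjusted p = 0.909), an error too wide to show that the responses were alike. Ppp1r3b and Ppp1r3c, both targeting subunits of the same phosphatase, thus moved in opposite directions on fasting of WT/WT mice.

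Gyg and Phka2 did not pass the test on fasting in either genotype. Fed Gyg levels were 3.251 to 7.178 CPM in WT/WT and 3.678 to 6.148 CPM in WT/Y657* mice, and fed Phka2 levels 25.84 to 33.44 and 24.52 to 31.22 CPM. Their log2 fold changes on fasting lay between -0.13 (Gyg, WT/Y657*) and 0.18 (Phka2, WT/WT).

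Clock genes moved too in these comparisons. Of 14 clock genes tested, 2 rose and 1 fell on fasting in WT/WT mice, led by Per2 (-1.31), Arntl (1.28) and Npas2 (1.48, log2), and 2 rose and 3 fell in WT/Y657* mice, led by Per1 (1.71), Clock (0.33) and Nr1d1 (-0.87). Of the 5 endothelial markers 3 rose on fasting in WT/WT mice (summed level 208.4 to 284.5 CPM fed, 291.7 to 339.4 fasted) and 0 in WT/Y657* mice (241.9 to 300.4 and 277.6 to 341.8). Of the 5 hepatocyte markers 1 rose and 1 fell in WT/WT mice (60280 to 78080 and 57880 to 87520) and 1 rose in WT/Y657* mice (45420 to 79520 and 67260 to 84980). In each genotype 1 of 2 tested adipocyte markers rose (sums over all 5 of 5.066 to 11.99 CPM fed and 23.96 to 37.66 fasted in WT/WT mice, 6.669 to 20.14 and 15.74 to 139.5 in WT/Y657* mice), while 1 of 5 cholangiocyte markers and the 1 pancreatic acinar marker tested fell. A stellate marker fell in WT/Y657* mice, 1 of 5, and a lymphocyte marker rose in WT/WT mice, 1 of 3. Harvest hours differ between the states by design. The part of the hour and of cell makeup in the glycogen gene responses was not tested.

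Refed mice were compared with fasted mice of the same 2 number series. In WT/WT liver 4 of the 9 members were called, where 30.2% of all genes tested were: Ppp1r3b and Gbe1 rose, as did 16.5% of all genes, and Ppp1r3c and Ppp1r3g fell, as did 13.7%. In WT/Y657* liver 4 were called, where 31.3% of all genes were: Ppp1r3b, Gbe1 and Pygl rose (17.1% of all genes) and Ppp1r3g fell (14.2%). Every called value kept its sign in both number series. The response to refeeding differed by genotype for 0 of the 9 members by edgeR, with 2 at an unadjusted p under 0.05, and for 2.06% of all genes, and DESeq2 and limma-voom also called 0 of 9.

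Ppp1r3b rose in both genotypes. In refed WT/WT mice it was at 289.8, 389.1 and 461.1 CPM and in refed WT/Y657* mice at 253.2, 364.8 and 489.2 CPM, and in both genotypes all 6 refed mice were above all 6 fasted mice. Such separation was found for 16.9% of genes tested in WT/WT and 11.9% in WT/Y657* mice. The log2 fold changes were 1.34 (SE 0.28, edgeR adjusted p = 0.000388) and 1.05 (SE 0.28, edgeR adjusted p = 0.00382), or 2.53-fold and 2.07-fold. Within the lower and higher number series the differences were 0.99 and 1.84 in WT/WT and 1.22 and 0.89 in WT/Y657* mice.

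Gbe1 rose as well, to 110.7, 145.7 and 182.1 CPM in WT/WT and 93.7, 130 and 164.6 CPM in WT/Y657* mice. The log2 fold changes were 0.51 (SE 0.14, edgeR adjusted p = 0.00525) and 0.81 (SE 0.14, edgeR adjusted p = 2.6e-05), and in WT/Y657* mice every refed mouse was above every fasted one. Pygl did not move with Gbe1 in WT/WT mice. In refed WT/WT mice it was at 276.6, 365.9 and 392.1 CPM, and the log2 fold change was -0.022 (SE 0.12, edgeR adjusted p = 0.914). In refed WT/Y657* mice it was at 269.5, 323.8 and 408.7 CPM, a rise of 0.37 (SE 0.12, edgeR adjusted p = 0.0149) that was at 0.30 (edgeR adjusted p = 0.0611) without RF6_MT_817.

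Ppp1r3c fell on refeeding in WT/WT mice, to 46.36, 76.83 and 80.9 CPM, with a log2 fold change of -0.56 (SE 0.17, edgeR adjusted p = 0.0124). In refed WT/Y657* mice it was at 48.39, 53.8 and 85.43 CPM, with 0.071 (SE 0.17, edgeR adjusted p = 0.791), and the interaction of 0.63 (SE 0.24) did not pass the test (edgeR adjusted p = 0.179). The refed genotypes overlapped for this gene. Gys2 was at 163.9, 192.5 and 234.2 CPM in refed WT/WT and 145.8, 169.1 and 189.8 CPM in refed WT/Y657* mice. Its change on refeeding was -0.42 in WT/WT mice (SE 0.17, edgeR adjusted p = 0.0616), with -0.043 in the lower and -0.67 in the higher number series, and -0.016 in WT/Y657* mice (SE 0.17, edgeR adjusted p = 0.956). The WT/WT value passed the threshold without ONF_WT_807 (0.0272), ONF_WT_824 (0.0277), ONF_WT_825 (0.0308) or RF6_WT_901 (0.04), with mouse number series as a covariate (-0.37, edgeR adjusted p = 0.0193), with at least 10 counts in every library (0.0478) and with DESeq2 (0.0363).

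**Figure D4:**
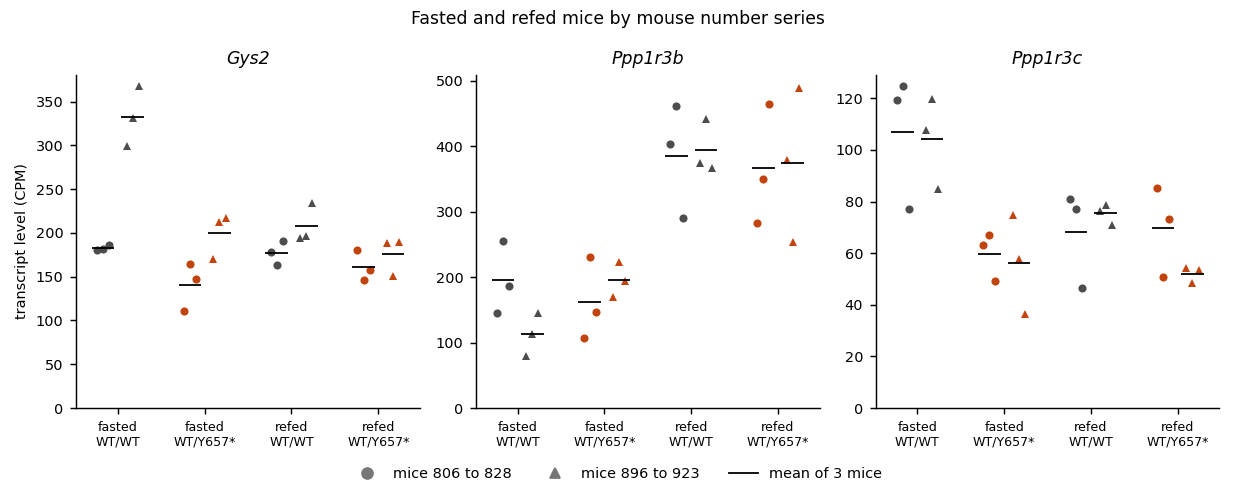
Level (CPM, y axes from 0) of Gys2, Ppp1r3b and Ppp1r3c in fasted and refed mice, with circles for the lower and triangles for the higher mouse number series and a line at the mean of 3 mice. Fasted WT/WT mice of the higher series had 299 to 368 CPM of Gys2 and those of the lower series 180.1 to 185.8, whereas Ppp1r3c lay lower in WT/Y657* than in WT/WT fasted mice in both series.

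Ugp2, Phka2 and Gyg were not called on refeeding in either genotype. Ugp2 was at 253.4, 296.4 and 341.4 CPM in refed WT/WT and 236.1, 273.2 and 321.2 CPM in refed WT/Y657* mice. Refed Phka2 levels were 26.78 to 34.52 and 23.55 to 33.79 CPM, and refed Gyg levels 3.374 to 5.46 and 3.809 to 6.161 CPM. Among clock genes 2 rose and 3 fell on refeeding in WT/WT mice, led by Clock (-0.74), Npas2 (-4.05) and Per2 (1.85, log2), and 6 rose and 3 fell in WT/Y657* mice, led by Clock (-0.78), Per2 (1.91) and Npas2 (-3.55). Of the 5 endothelial markers 2 fell in WT/WT mice (232.8 to 300.9 CPM summed in refed mice) and 3 in WT/Y657* mice (230.5 to 257.6), and 1 of the 5 hepatocyte markers fell in each genotype (50660 to 75750 and 56360 to 74850). Of the 5 stellate markers 1 rose and 2 fell in WT/WT mice (322 to 447.5 CPM) and 1 rose and 1 fell in WT/Y657* mice (313.8 to 430.6), and 1 of 2 adipocyte markers fell in WT/Y657* mice. Their part was not tested.

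In mice refed for 6 h, Pygl was lower than in fed mice, which share no number series with them. Against fed mice, 2 of 9 members were called in WT/WT mice, Pygl and Ppp1r3g, where 27.5% of all genes tested were called (14.3% lower), and 2 in WT/Y657* mice, Pygl and Ugp2, where 26.1% were (13.1% lower). All of these values were lower in refed mice. Pygl was lower by 0.97 on the log2 scale in WT/WT (SE 0.12, edgeR adjusted p = 1.9e-07) and by 1.29 in WT/Y657* mice (SE 0.12, edgeR adjusted p = 5.4e-10). Ugp2 was lower by 0.59 in WT/Y657* mice (SE 0.13, edgeR adjusted p = 0.00055), with -0.29 in WT/WT mice (SE 0.13, edgeR adjusted p = 0.077). Gbe1, Ppp1r3b, Ppp1r3c, Gys2, Phka2 and Gyg were not called against fed mice in either genotype. Of 14 clock genes 1 was higher and 2 were lower in refed than fed WT/WT mice (Clock at -0.58, Npas2 at -2.57 and Per3 at 1.01, log2), and 4 were higher and 3 lower in WT/Y657* mice. Of 5 hepatocyte markers 2 were lower in WT/WT and 1 in WT/Y657* mice, with summed levels of 60280 to 78080 CPM fed and 50660 to 75750 refed in WT/WT and 45420 to 79520 and 56360 to 74850 in WT/Y657* mice. In WT/WT mice 2 of 5 cholangiocyte markers (31.16 to 79.56 and 20.43 to 31.32 CPM summed) and 1 of 5 stellate markers were lower and 1 of 5 endothelial markers was higher, and in WT/Y657* mice 1 stellate and 1 endothelial marker were lower. In both genotypes 1 adipocyte marker was higher and 1 acinar marker lower. Their part in the lower Pygl was not tested.

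Ppp1r3g, a further glycogen-targeting subunit, was read in every fasted mouse and at low levels in refed mice. In fasted WT/WT mice it had 0.6444, 0.9318 and 3.229 CPM (lowest, median and highest), or 113 reads in 6 libraries. Refed WT/WT mice had 0, 0.03694 and 0.2024 CPM, or 7 reads. In fasted WT/Y657* mice it had 0.3329, 1.663 and 2.776 CPM (121 reads) and in refed WT/Y657* mice 0, 0.06842 and 0.1536 CPM (7 reads). In both genotypes all 6 fasted mice were above all 6 refed mice. Pooled over libraries, the level was 18.6 times higher in fasted than refed WT/WT mice (exact 95% interval 8.72 to 47.2) and 20.7 times higher in WT/Y657* mice (9.73 to 52.5), intervals that cover counting error only. The edgeR adjusted p was 0.0173 and 0.0137, and it was not called between fasted genotypes (0.961). At this depth a difference between refed genotypes was not detectable.

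Against fed mice the Ppp1r3g comparison rests on 1 mouse, ALC_WT_860. Of 216 reads in fed WT/WT mice 210 came from that mouse, at 14.14 CPM, while the other 5 had at most 0.1868 CPM and 0 to 2 reads each. Fed WT/Y657* mice had 0, 0.2008 and 1.45 CPM (41 reads), and 2 of them, ALC_MT_868 at 0.6441 CPM and ALC_MT_869 at 1.45 CPM, lay within the range of fasted mice. The log2 fold change on fasting was -0.78 in WT/WT mice with ALC_WT_860 (edgeR adjusted p = 0.535) and 3.73 without it (edgeR adjusted p = 0.000618), and the pooled ratio of fasted to fed was 0.513 (exact interval 0.405 to 0.647) with it and 14.8 (6.57 to 41) without it. The call of Ppp1r3g as lower in refed than fed WT/WT mice also rested on it: the fitted value was -4.84 (edgeR adjusted p = 0.00402) with that mouse and -0.33 (0.873) without it. In WT/Y657* mice the level after fasting was 3.59 times that of fed mice in pooled reads (2.5 to 5.25), with a fitted log2 fold change of 1.80 (SE 0.99, edgeR adjusted p = 0.171).

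**Figure D5:**
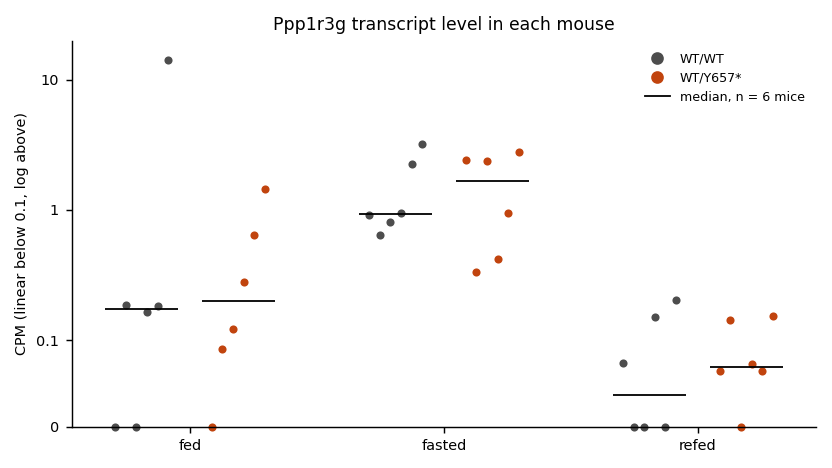
Ppp1r3g level in each mouse (CPM, y axis linear below 0.1 and logarithmic above), WT/WT in grey and WT/Y657* in orange, with a line at the median of 6 mice. Fasted mice lie between 0.3329 and 3.229 CPM and refed mice at or below 0.2024, while fed mouse ALC_WT_860 stands at 14.14.

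Other genes of glycogen metabolism were read from a list of 43 in 7 groups by role, of which 40 were tested, 31 of them not among the 9. In fasted liver 1 of the 31 was higher and 5 were lower in WT/Y657* mice, when 13.1% of all genes were called. The lower ones with the smallest p were the phosphoglucomutase listed as Pgm2 (-0.39, edgeR adjusted p = 0.000788), Epm2a for the glycogen phosphatase laforin (-0.60, 0.00873) and Slc2a2 for the glucose transporter GLUT2 (-0.81, 0.0225). Phkg1, a catalytic subunit of phosphorylase kinase read at no more than 2.314 CPM in any fasted mouse, was higher (1.08, 0.0212). Pgm2, which interconverts glucose 1- and 6-phosphate, had medians of 281.4 CPM in WT/WT and 212.3 CPM in WT/Y657* fasted mice. In fed liver only Gckr was called (0.37 higher, edgeR adjusted p = 0.00968), and in refed liver 0 of 31 were (edgeR).

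On fasting, 5 of the 31 rose and 11 fell in WT/WT mice, where 14.5% of all genes tested rose and 17.5% fell. In WT/Y657* mice 5 rose and 10 fell, against 15.2% and 17.7% of all genes. In WT/WT mice the phosphorylase kinase β subunit Phkb (-0.51) was among those that fell, and the lysosomal glucosidase Gaa (0.50), the synthase kinase Gsk3a (0.43) and the phosphatase catalytic subunit Ppp1cc (0.36, log2) led those that rose. In WT/Y657* mice Gckr (-0.55) and Phkb (-0.60) were among the falls, and Gaa (0.40), Gsk3a (0.31) and Ppp1r3f (1.26) led the rises. Phkb thus moved with Pygl and Gbe1 in WT/WT liver. On refeeding 6 of 31 rose and 5 fell in WT/WT mice (16.5% and 13.7% of all genes) and 8 rose and 5 fell in WT/Y657* mice (17.1% and 14.2%). The fasting response differed by genotype for 5 of the 31 besides Pygl and Ppp1r3c, and for 4.35% of all genes, with Gckr at -0.53 (edgeR adjusted p = 0.00523), Epm2a at -0.85 (0.021) and Pgm2 at -0.38 (0.0352) among the negative and Ppp1cb at 0.30 (0.0384) and Phkg1 at 1.51 (0.0424) among the positive values. Pgm2 and Epm2a thus moved as Pygl and Ppp1r3c did, lower in fasted WT/Y657* liver with a response to fasting that differed.

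Across the 36 libraries, which share feeding states and scaling, some members rose and fell together. Spearman's rho was 0.803 between Gbe1 and Pygl, 0.796 between Gbe1 and Ppp1r3b, 0.737 between Ugp2 and Pygl and 0.655 between Gys2 and Phka2, whereas Ppp1r3b and Ppp1r3g had the lowest rho of the 36 pairs (-0.606). Gys2 and Pygl had -0.142. Among 12601 genes with a mean of at least 1 CPM, those most like Pygl were Pqlc1 (0.948), the transketolase Tkt (0.942) and the pyruvate kinase Pklr (0.929), and those most like Gbe1 were Dak (0.916), Pklr (0.91) and Pdhb (0.904). Ugp2 was nearest to the ketohexokinase Khk (0.862), Car3 (0.847) and Cyb5r3 (0.837), Gys2 to Bbox1 (0.801), Hadh (0.787) and Asgr1 (0.779), and Phka2 to Gpd1 (0.739), Bbox1 (0.727) and Aptx (0.723). Among the targeting subunits, Ppp1r3b was nearest to Cml5 (0.904), Tmcc1 (0.878) and Derl2 (0.857), Ppp1r3c to Ppap2b (0.712) and, less so, G0s2 (0.663), and Ppp1r3g to Mosc1 (0.831), Gabarapl1 (0.83) and Rab9 (0.828). No gene exceeded 0.554 (Ddx11) for Gyg, followed by Cenpt (0.534) and Ier3ip1 (0.511). These values describe the 36 libraries and carry no test.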

How the data were processed

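Total RNA of 36 livers was sequenced by the authors from stranded libraries, and the values used are the expected counts per gene that they deposited, of which 3.64% of nonzero values were not whole. Counts were rounded. The submitters' processing notes name SAMtools, Cuffdiff, featureCounts and edgeR, without versions, and mm9, although the deposited loci lie on GRCm38 (94.93% of IDs matched in GENCODE). A table of fitted counts was not used. Groups came from the sample labels. Fasted and refed mice carry the numbers 806 to 828 (lower series) or 896 to 923 (higher series).

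In R 4.3.3, edgeR 4.0.16 (filterByExpr, TMM, quasi-likelihood fit of all 6 groups, contrasts, Benjamini-Hochberg adjustment over 13945 genes) gave log2 fold changes, SE and p. Depth of 8839488 to 19542775 counts per library left 38 to 105 reads for Gyg and 0 to 210 for Ppp1r3g. No 2 libraries of the same group agreed within sampling noise (90 pairs), and pairs across groups were not compared. The p-values measure the spread between these mice. Alternatives were DESeq2 1.42.0, limma-voom (limma 3.58.1), the likelihood ratio test, library-size scaling, other filters, fits of only the groups compared, mouse number series as a covariate and each mouse left out. Scripts were tested on simulated data.

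The members, lists and tests were chosen with earlier results of these data known. Named genes are the members, Pik3r1, up to 3 other listed glycogen genes and 3 clock genes with the smallest p per comparison and direction, and the 3 genes most like each member. Some genes that this rule names are not reported here. Intervals for pooled reads are exact binomial at 95% and cover counting error only. Lengths for CPM per kb are merged GENCODE exons.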

Additional observations from a re-analysis of the deposited data

Results flagged for a closer look

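Of 54 sets of 6 mice (9 members in 6 groups), 3 held a mouse whose gap to its nearest neighbour exceeded the 95% critical share of the group's range in Dixon's test, and chance alone gives about 5% of such sets. Gap and range were taken on log2 CPM, so the ratios do not follow from the CPM values given beside them. Ppp1r3g in fed WT/WT mice had a ratio of 0.822, with ALC_WT_860 at 14.14 CPM and the next mouse at 0.1868 CPM. Ppp1r3c in refed WT/WT mice had a ratio of 0.768, with RF6_WT_828 at 46.36 CPM and the next mouse at 71.11 CPM. Ppp1r3b in fed WT/WT mice had a ratio of 0.696, with ALC_WT_847 at 162.2 CPM and the next mouse at 326.6 CPM.

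For 2 members the response to fasting differed between the genotypes by the interaction test of edgeR. The difference, as WT/Y657* minus WT/WT on the log2 scale, was -0.94 for Ppp1r3c and -0.71 for Pygl. The part of mouse number, which genotype nearly follows in fed mice, was not tested.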

How the results depend on the processing

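The count of members called between fasted genotypes, 5, was 3 with no filter on low counts and 3 in a fit of only the groups compared, and between 2 and 6 with 1 mouse left out. Refed against fed WT/WT mice gave 2 calls, but 1 with limma-voom, 1 with at least 10 counts in every library (which removes Ppp1r3g from testing) and 1 to 2 with 1 mouse left out. The log2 fold change of Ppp1r3g on fasting of WT/WT mice, -0.78, was 2.24 with limma-voom, 3.73 without ALC_WT_860 and between -1.17 and 3.73 with 1 mouse left out. Elsewhere the count of members called moved by at most 1 with 1 mouse left out. Of the member values with 1 mouse left out 1374 stayed called or uncalled as before, 18 lost the call, 11 gained it and 1 gained it with the opposite sign, and under the other settings 812, 6, 9 and 1 did so. Uncalled values could change sign, as Ppp1r3g between fed genotypes did (-2.48, and 2.03 without ALC_WT_860).

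Over all genes, 330 calls between fed genotypes were 0 with mouse number series as a covariate, 30 in a fit of only the groups compared, 207 with no filter, 516 with the likelihood ratio test, 644 with DESeq2 and 756 with scaling by library size only, which moved the median log2 fold change of all genes there from 0.0079 to 0.1077. With 1 mouse left out the calls between fed genotypes went down to 68 (without ALC_MT_868) and were highest without ALC_MT_858, with 9 of 12 counts over 1.5 times from 330. They were 1168 (without ONF_MT_806) to 2003 between fasted and 1 to 6 between refed genotypes, so the shares of all genes given beside members carry that spread. The 4 calls between refed genotypes were 9, 18 and 25 with the covariate, the likelihood ratio test and DESeq2. Calls of a fasting or refeeding response that differed by genotype, 607 and 287, were 386 and 152 with no filter, and the latter were 124 (without ONF_MT_806) to 391 with 1 mouse left out. The cause was not tested. Depth limits Ppp1r3g and Gyg. No paired analysis was possible because no 2 groups share a replicate number.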
